A study of Mus musculus with 6 samples.

Results

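The suppressor of cytokine signaling (SOCS) genes Cish, Socs1, Socs2, Socs3, Socs4, Socs5, Socs6 and Socs7, together with Pias1, were examined in neonatal lung group 2 innate lymphoid cells (ILC2s). The 9 genes were taken by symbol from the 55394 entries of each library, and each symbol was found once, on the Ensembl identifier that the annotation gives it. The libraries came from SMART-seq, an RNA sequencing method for small inputs, of 1000 sorted lung ILC2s each. There were 3 libraries from wild type C57BL/6 (C57BL/6J in the methods) pups of dams that drank an antibiotic cocktail of ampicillin, metronidazole, neomycin and vancomycin from day 10 to day 14 of gestation (Abx), and 3 from wild type C57BL/6 pups of control dams (Con). The ILC2s were sorted as CD45+ Lin- CD90.2+ CD25+ cells. Both sexes were used in the study, and the age of the pups and their number and sex in each library are not given in the sources used here. The replicates are separate samples in the labels, but nothing says that they came from separate litters, so the spread between them may be partly technical.

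SOCS proteins are the classical negative feedback of the JAK-STAT pathway. A cytokine binds its receptor, Janus kinases phosphorylate the receptor and a STAT factor, the STAT factor enters the nucleus, and SOCS genes are among its targets. The SOCS protein then binds the kinase or the receptor through an SH2 domain and, through its SOCS box, brings in a ubiquitin ligase that marks the bound proteins for degradation. Cish and Socs2 are known targets of STAT5, which IL-2 and IL-7 activate in lymphocytes. Socs1 is induced by interferons and by cytokines of the common gamma chain, and Socs3 mainly by STAT3. Socs4 to Socs7 are less dependent on cytokines, and the PIAS proteins are SUMO ligases that restrain STAT factors in the nucleus. ILC2s depend on IL-7 and respond to IL-2, and interferons restrain them.

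The promoters of the 3 best known feedback genes are shown because they carry the motifs through which STAT and interferon-activated factors are known to act. The RefSeq table of GRCm38.p6 promoters, which gives 250 bases before and 50 bases after the start, held a window for 5 of the 9 genes. Capitals mark TTCNNNGAA, the motif bound by STAT dimers, and GAAANN followed by GAAA, a core of the interferon response element. Both were searched on both strands, and the first reads alike on each. In Cish (chr9:107296409-107296708, plus strand) the STAT motif occurred 2 times, at bases 1 to 9 and 12 to 20 after the start. In Socs1 (chr16:10785487-10785786, minus strand) the interferon motif occurred 2 times with an overlap, from base -83 to -74 and from -77 to -68. In Socs3 (chr11:117969317-117969616, minus strand) the STAT motif occurred 1 time, from base -154 to -146.
Cish: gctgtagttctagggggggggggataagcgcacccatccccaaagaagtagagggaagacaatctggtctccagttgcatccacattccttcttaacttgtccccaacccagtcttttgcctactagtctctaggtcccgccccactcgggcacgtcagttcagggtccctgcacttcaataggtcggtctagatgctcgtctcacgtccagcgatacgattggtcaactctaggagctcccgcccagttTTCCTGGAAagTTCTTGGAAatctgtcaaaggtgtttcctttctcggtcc
Socs1: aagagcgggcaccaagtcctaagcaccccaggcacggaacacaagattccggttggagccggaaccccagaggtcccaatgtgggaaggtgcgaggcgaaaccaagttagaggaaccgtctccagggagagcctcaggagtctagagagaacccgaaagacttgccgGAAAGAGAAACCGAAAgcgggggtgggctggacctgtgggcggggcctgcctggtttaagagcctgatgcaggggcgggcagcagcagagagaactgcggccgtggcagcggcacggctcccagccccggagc
Socs3: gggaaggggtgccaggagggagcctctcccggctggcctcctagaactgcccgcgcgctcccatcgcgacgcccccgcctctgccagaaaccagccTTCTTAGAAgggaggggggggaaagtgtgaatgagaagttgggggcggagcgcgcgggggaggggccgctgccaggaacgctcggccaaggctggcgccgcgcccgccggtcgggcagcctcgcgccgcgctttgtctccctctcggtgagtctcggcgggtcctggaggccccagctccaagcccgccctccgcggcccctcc
Of all 32851 windows of this length, 8.3% held the STAT motif, 0.457% held it 2 times or more and 3.44% held the interferon motif. Neither motif was found in the windows of Socs4 and Pias1. A match describes letters and does not show that a factor was bound in these cells.

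The levels are FPKM, fragments scaled to exon length and to mapped reads, and can be compared between genes per length. The number of reads behind a value is unknown, so intervals from counting cannot be given. The libraries of Con held 8574 to 9203 genes at 1 FPKM or more and those of Abx 7074 to 8193. The 13 ILC2 markers summed to 2857 to 3262 FPKM in Con and, lower, to 2165 to 2747 FPKM in Abx, but not all of them were lower. Arg1, Areg, Icos and Il1rl1 were lower in each Abx library than in any Con library. Areg, for example, had a mean of 740 FPKM in Con and 289 FPKM in Abx. Ptprc was higher in each Abx library than in any Con library, and the groups overlapped in the other markers of this list. For comparison, groups did not overlap in 17.2% of the 8718 genes tested below and in 11.0% of the 19564 genes above 0 in any library. Of the 13 ILC2 markers, 12 were at 1 FPKM or more in all 6 libraries, among them Gata3 at 33.9 to 97.5 FPKM. The exception was Il1rl1, the IL-33 receptor, which was at 0.06, 0.89 and 2.94 FPKM in Con against 0.03 FPKM or less in Abx. The summed levels of markers of other lymphocytes were higher in Abx, but not all of these markers were. The 10 B cell markers summed to 431 to 597 FPKM in Con and to 1396 to 1676 FPKM in Abx, and the 11 T cell markers to 343 to 375 and 497 to 589 FPKM. Ly6d and Ighm gave most of the difference between the B cell sums, whereas Cd79b, Cd22 and the T cell marker Zap70 were lower in all 3 Abx libraries than in any Con library. The 7 NK cell markers summed to 2.45 to 27.1 FPKM in Con and to 215 to 235 FPKM in Abx, nearly all of it Gzma, while Klrb1c, Tbx21 and Prf1 were listed at 0 in all 6 libraries. Sums for the other lists overlapped between the groups. They were 131 to 366 and 176 to 381 FPKM for 9 myeloid markers, 24.6 to 1158 and 55.7 to 142 FPKM for 7 epithelial markers, 5.1 to 10.8 and 6.14 to 21.1 FPKM for 5 endothelial markers, 0.53 to 0.86 and 0.58 to 2.81 FPKM for 5 fibroblast markers, and 3059 to 6553 and 1460 to 3973 FPKM for 5 erythroid markers. Sftpb and Cdh1 of the epithelial list were listed at 0 throughout. Xist, a transcript of the inactive X chromosome, was at 3.78 to 5.09 FPKM in Con and listed at 0 in Abx, so that sex and exposure cannot be told apart. In a bulk library, fewer expressing cells and less RNA per cell cannot be told apart either. What part these markers have in the values below was not tested.

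Cish (ENSMUSG00000032578), on chromosome 9 of GRCm38 from 107296026 to 107302784, was the most abundant member. Con libraries 1, 2 and 3 held 44.2, 103 and 64.8 FPKM of it, and Abx libraries 1, 2 and 3 held 86.9, 61.9 and 39.6 FPKM. All values below follow this order of libraries. It ranked first of the 9 genes in 5 of 6 libraries and lay above 77.3% to 92.9% of the genes at 1 FPKM or more in its library. Over the 6 libraries the mean of Socs3 was 19.5 FPKM, that of Socs1 13.6 FPKM, that of Socs2 11.8 FPKM and that of Pias1 8.27 FPKM. Socs4 followed with 1.93 FPKM, Socs5 with 0.702 FPKM, Socs7 with 0.452 FPKM and Socs6 with 0.08 FPKM. Every neighbouring pair in this order had overlapping ranges. Cish was above Socs3 in 5 of 6 libraries, Socs3 was above Socs1 in 3 of 6, and Socs1 was above Socs2 in 5 of 6. Cish and Socs3 were above 1 FPKM in every library, as was Socs1, whereas Socs2 was near 0 in Abx library 3 and Socs6 was under 1 FPKM in every library.

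**Figure D1:**
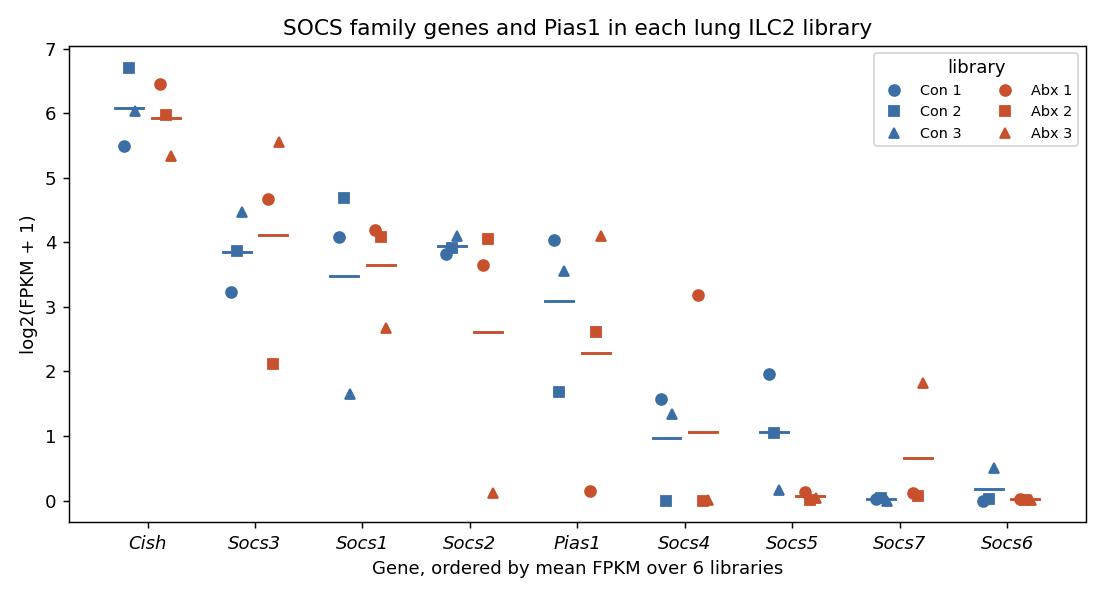
Level of each gene in each library as log2(FPKM + 1), with Con in blue, Abx in red and a bar at the mean of each group of 3. Cish lies highest in 5 of 6 libraries, and the groups overlap in 7 of the 9 genes; Socs5 and Socs7 are the others, and both lie near 0 in most libraries.

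The comparison of Abx with Con asked whether exposure of the dam moved these feedback genes. The test was limma on log2(FPKM + 1) over the 8718 genes that reached 1 FPKM in 3 or more libraries, a filter that 6 of the 9 members passed. With a call defined by an adjusted p under 0.05 together with more than a 2-fold change, 0 of the 6 members were called, where 0.0574% of all genes tested were called. At an unadjusted p under 0.05, 0 of the 6 were higher or lower, against 4.74% of all genes tested that were higher in Abx and 6.25% that were lower. By the mean of log2(FPKM + 1), the mean behind every count of higher and lower genes below, 3 members were higher and 3 lower in Abx. Their median difference was -0.03 on the log2(FPKM + 1) scale, beside -0.06 over all genes tested. In 0 of the 6 tested members did the groups lie apart, where 17.2% of all genes tested had groups that did not overlap. With 3 libraries a group, these counts leave room for differences within the intervals given below.

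**Figure D2:**
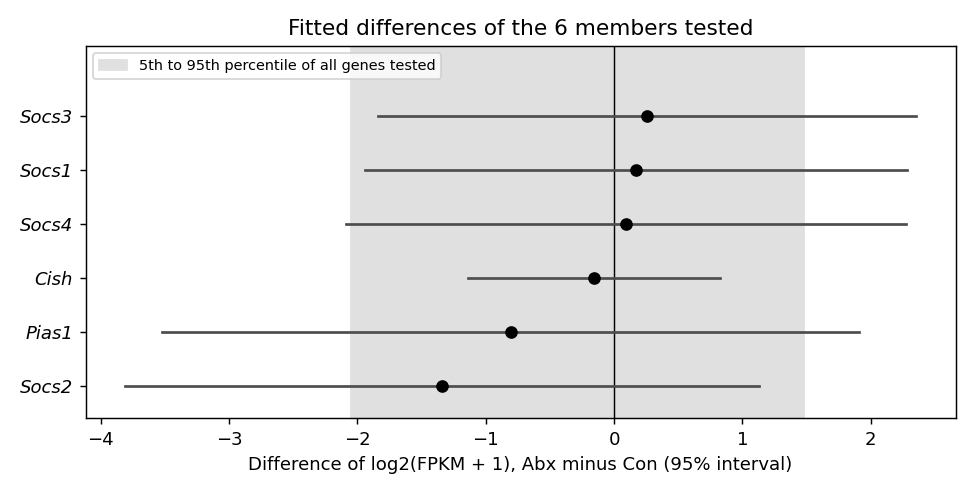
Fitted difference of log2(FPKM + 1), Abx minus Con, for the 6 members tested (points) with 95% intervals (lines), over the range from the 5th to the 95th percentile of all genes tested (grey, -2.05 to 1.48). Every interval includes 0, and that of Cish is the narrowest.

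Among the members linked to STAT5, Cish was at 70.8 ± 30.0 FPKM in Con against 62.8 ± 23.7 FPKM in Abx (SD, n = 3 each). The highest library was 2.34 times the lowest within Con and 2.20 times the lowest within Abx, while the Abx mean was 0.887 times the Con mean. The fitted difference of log2(FPKM + 1) was -0.16 (standard error 0.42, limma adjusted p = 0.922). Its 95% interval ran from -1.14 to 0.83, which corresponds to 0.454-fold to 1.77-fold on the FPKM + 1 scale. A change of Cish anywhere within these bounds is compatible with the 6 libraries. The sign turned without Con library 2 (0.16) and without Abx library 3 (0.14). Exons of Cish share 479 bases with the antisense gene Gm17041, which was listed at 0 in all libraries.

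Socs2 (ENSMUSG00000020027), on chromosome 10 from 95385362 to 95417180, is best known for restraining growth hormone signaling. It was at 13.1, 14.0 and 16.2 FPKM in Con. In Abx the values were 11.6, 15.6 and 0.08 FPKM. Of the 6 libraries, 5 thus lay between 11.6 and 16.2 FPKM, and Abx library 3 alone was near 0. The fitted difference was -1.34 (standard error 1.06, limma adjusted p = 0.715), with a 95% interval from -3.81 to 1.13, and it was -0.09 without Abx library 3. In this library, 46 of the 2368 genes at 10 FPKM or more in each of the other 5 libraries were under 0.1 FPKM, or 1.94%. That share was 0.219% to 0.438% in the Con libraries and 0.952% and 1.14% in Abx libraries 1 and 2. This count was chosen after the values of Socs2 were seen, and whether it bears on Socs2 was not tested.

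Socs1 (ENSMUSG00000038037), on chromosome 16 from 10782240 to 10785536, blocks JAK kinases and is the member most directly tied to interferon signaling. It was at 16.0, 24.8 and 2.15 FPKM in Con. In Abx it was at 17.3, 16.0 and 5.4 FPKM. Each group held 2 libraries near 16 FPKM or above and 1 low library. The fitted difference was 0.17 (standard error 0.91, limma adjusted p = 0.967), with a 95% interval from -1.94 to 2.29. The mean in FPKM went the other way, at 14.3 ± 11.4 FPKM for Con and 12.9 ± 6.51 FPKM for Abx (SD, n = 3 each). The fitted difference was -0.74 without Con library 3, -0.10 without Abx library 1, -0.04 without Abx library 2 and 0.78 without Con library 2, so that single libraries set its sign.

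Socs3 (ENSMUSG00000053113), on chromosome 11 from 117966079 to 117970047, binds the IL-6 receptor subunit gp130 and its kinases. It was at 8.36, 13.6 and 21.1 FPKM in Con. In Abx it was at 24.4, 3.31 and 46.0 FPKM. The Abx libraries held both the lowest and the highest value of the 6. The fitted difference was 0.26 (standard error 0.90, limma adjusted p = 0.941), with a 95% interval from -1.84 to 2.35. It was -0.47 without Abx library 3, -0.06 without Con library 1, -0.02 without Abx library 1 and 1.26 without Abx library 2. In Abx library 3 Socs3 was above Cish, the only library of the 6 with that order. The ratio of Cish to Socs3 was 5.29, 7.58 and 3.08 in Con, whereas Abx held 3.56, 18.7 and 0.859.

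Socs4 (ENSMUSG00000048379), on chromosome 14 from 47276931 to 47296102, is linked to the receptor of epidermal growth factor. It was at 1.97, 0 and 1.54 FPKM in Con against 8.06, 0 and 0.01 FPKM in Abx. It passed the filter with 3 libraries, and its fitted difference was 0.09 (standard error 0.94, limma adjusted p = 0.983), with a 95% interval from -2.09 to 2.28. The direction turned with smaller pseudocounts and with centring of the libraries, so none is given. Pias1 (ENSMUSG00000032405), on chromosome 9 from 62878368 to 62987924, restrains STAT factors in the nucleus. It was at 15.4, 2.21 and 10.8 FPKM in Con against 0.11, 5.11 and 16.1 FPKM in Abx. The groups overlapped across their whole width. Its fitted difference was -0.81 (standard error 1.17, limma adjusted p = 0.855), with a 95% interval from -3.53 to 1.91, and it was 0.26 without Abx library 1.

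Socs5 (ENSMUSG00000037104, chromosome 17 from 87107679 to 87137839), Socs6 (ENSMUSG00000056153) and Socs7 (ENSMUSG00000038485, chromosome 11 from 97362551 to 97398542) did not pass the filter and were compared by an exact two-sided permutation test, whose smallest p with 3 libraries against 3 is 0.1. Socs5 was at 2.89, 1.06 and 0.12 FPKM in Con against 0.1, 0.01 and 0.03 FPKM in Abx (exact permutation p = 0.1). Its groups did not overlap, although Con library 3 and Abx library 1 differed by little. Socs7 was at 0.02, 0.03 and 0 FPKM in Con against 0.08, 0.05 and 2.53 FPKM in Abx (exact permutation p = 0.1). Its groups did not overlap either, with 1 library above 1 FPKM. Socs6 was at 0, 0.02 and 0.42 FPKM in Con against 0.02, 0.01 and 0.01 FPKM in Abx (exact permutation p = 0.8). The groups did not overlap in 2 of the 9 members, where 11.0% of the 19564 genes above 0 in any library had groups that did not overlap. Both genes lie at levels where values differ by hundredths of an FPKM in most libraries.

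Read library by library, the feedback genes did not lie together on one side of the Con mean. Relative to the Con mean of log2(FPKM + 1), Con library 2 was high in Cish (0.62) and Socs1 (1.21) and level in Socs3 (0.02). Abx library 1 was above the Con mean in Cish (0.38), Socs1 (0.71) and Socs3 (0.81) and below it in Socs2 (-0.29). Abx library 2 was below it in Cish (-0.11) and Socs3 (-1.75) and above it in Socs1 (0.61). Abx library 3 was below it in Cish (-0.74), Socs1 (-0.80) and Socs2 (-3.83) and above it in Socs3 (1.70). The summed level of the 9 genes was 102, 159 and 117 FPKM in Con against 149, 102 and 110 FPKM in Abx. The groups overlapped in this sum as well.

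**Figure D3:**
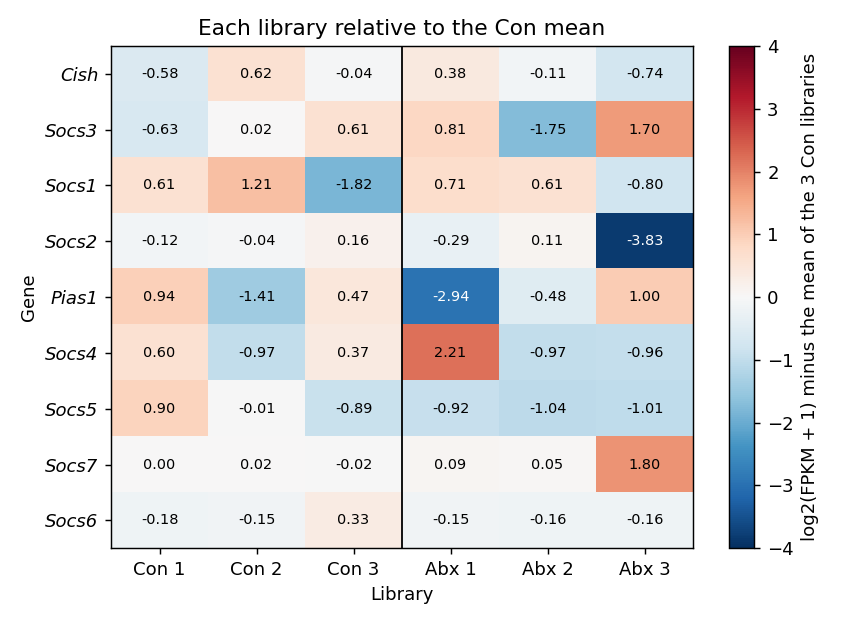
Level of each gene in each library as the log2(FPKM + 1) difference from the mean of the 3 Con libraries, with higher values in red and lower values in blue. Within Abx, Socs3 ranges from -1.75 to 1.70, and the lowest value is Socs2 in Abx library 3, at -3.83.

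The rest of the pathway was measured on lists by role. Their counts and medians include genes that passed the filter only through the group where they were high, and a low p of such a gene follows in part from the filter. Of 11 ligand genes, 4 were tested. Il2 was at 37.7 ± 23.1 FPKM in Con against 45.7 ± 24.7 FPKM in Abx and Il6 at 34.9 ± 14.5 and 19.0 ± 10.6 FPKM (SD, n = 3 each), neither past the test. Il4 was listed at 0 in Con and was at 3.16, 2.57 and 5.46 FPKM in Abx, so that it passed the filter through Abx alone and no p is given. Ifng and Ifnb1 did not pass the filter. Ifng reached 27.9 FPKM in Abx library 2 and was at 0.06 FPKM or less in each other library. Ifnb1, named after its values were seen, was at 0.03, 13.6 and 7.94 FPKM in Con and listed at 0 in each Abx library. In Abx library 2, where Ifng was high, Socs1 was at 16.0 FPKM, within the range of the Con libraries. A link between Ifng and Socs1 was not tested.

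Of 9 receptor genes of the common gamma chain family and TSLP, 7 were tested, 1 with a higher and 6 with a lower mean in Abx. Their median difference was -0.89, and 0 passed at an unadjusted or adjusted p under 0.05 in limma. Il2rg, the common gamma chain itself, was at 1132 ± 91.3 FPKM in Con against 1091 ± 53.3 FPKM in Abx (SD, n = 3 each). Il2rb, the IL-2 receptor beta chain, was at 109, 52.7 and 115 FPKM in Con against 40.9, 29.2 and 69.0 FPKM in Abx (log2 difference -0.98, standard error 0.44, limma adjusted p = 0.472). Il7r was at 37.2 ± 19.2 and 49.3 ± 6.94 FPKM (SD, n = 3 each; limma adjusted p = 0.735). Il2rg varied least of these 3, and the 2 groups overlapped in all 3 genes.

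All 3 tested interferon receptor genes had a higher mean in Abx, with a median difference of 0.24. Ifnar1, the other gene of this list, did not pass the filter and went the other way, at 0, 11.6 and 8.24 FPKM for Con and listed at 0 in each Abx library. Of the 3 tested, 1 had an unadjusted p under 0.05 and was higher in Abx, as were 4.74% of all genes tested. Ifngr1, a chain of the receptor for IFN-gamma, was at 112, 79.4 and 94.3 FPKM in Con against 167, 130 and 176 FPKM in Abx (log2 difference 0.72, standard error 0.25, limma adjusted p = 0.294). Its groups did not overlap. Ifngr2 was at 18.4 ± 0.826 and 21.1 ± 3.58 FPKM and Ifnar2, a chain of the type I interferon receptor, at 15.3 ± 8.70 and 17.1 ± 6.15 FPKM (SD, n = 3 each). Of 10 other cytokine receptors, 3 were tested and all 3 had a lower mean of log2(FPKM + 1) in Abx, with a median of -0.78. Il10ra, a chain of the IL-10 receptor, was at 45.0, 19.2 and 12.4 FPKM in Con against 0.09, 14.2 and 1.26 FPKM in Abx (log2 difference -2.79, standard error 1.07, limma adjusted p = 0.373). Il27ra was at 99.1 ± 29.6 and 69.7 ± 34.5 FPKM and Il10rb at 12.1 ± 4.79 and 12.5 ± 12.1 FPKM (SD, n = 3 each).

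The 4 Janus kinases were all tested, with 2 higher and 2 lower means, a median of 0.11 and 0 past an unadjusted p under 0.05 in limma. Jak3, the kinase that binds the common gamma chain, was at 23.1, 33.7 and 19.0 FPKM in Con against 0.52, 5.18 and 18.7 FPKM in Abx (log2 difference -2.17, standard error 0.93, limma adjusted p = 0.454). The highest Abx library lay just under the lowest Con library. Jak1 was at 46.3 ± 11.0 and 35.1 ± 14.9 FPKM and Jak2 at 10.5 ± 3.03 and 18.8 ± 11.2 FPKM (SD, n = 3 each).

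Of 7 STAT genes, 5 were tested, 1 with a higher and 4 with a lower mean, with a median of -0.22. Stat5a was at 5.34, 4.53 and 1.55 FPKM in Con against 0.62, 0 and 0.06 FPKM in Abx and passed the filter through Con alone, so that no p is given. Stat5b, named here after its values were seen, was at 5.37, 13.9 and 8.11 FPKM in Con against 14.0, 7.2 and 8.7 FPKM in Abx, and these ranges overlap. Stat6 was at 23.7, 20.2 and 21.1 FPKM in Con against 18.0, 10.4 and 0.1 FPKM in Abx (limma adjusted p = 0.591), and like Socs2 it was near 0 in Abx library 3. Stat4 was at 21.2 ± 10.3 and 19.2 ± 4.74 FPKM and Stat3 at 18.5 ± 4.52 and 15.6 ± 3.74 FPKM (SD, n = 3 each).

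Of 9 other inhibitors, 7 were tested, 3 with higher and 4 with lower means, with a median of -0.18. Pias3, the STAT3 inhibitor of the PIAS family, was at 3.95, 11.7 and 3.41 FPKM in Con against 0.06, 0.02 and 0 FPKM in Abx and passed the filter through Con alone, so that no p is given. The tyrosine phosphatases Ptpn2, Ptpn6 and Ptpn1 were at 48.1 ± 6.27, 47.7 ± 11.4 and 17.4 ± 6.14 FPKM in Con against 49.0 ± 28.5, 39.9 ± 22.7 and 27.2 ± 9.77 FPKM in Abx (SD, n = 3 each). None of these 3 passed. Of the 10 symbols listed for the ubiquitin ligase that SOCS boxes bring in, 8 were found and tested, with a median of 0.04. Those not found, Tceb2 and Tceb1, are earlier symbols of Elob and Eloc, which were found. Rbx1, its RING subunit with most cullins, was at 35.2, 23.8 and 26.1 FPKM in Con against 64.5, 68.8 and 116 FPKM in Abx (log2 difference 1.49, standard error 0.35, limma adjusted p = 0.127). Rnf7, the RING subunit with Cul5, was at 40.1 ± 11.4 and 69.6 ± 19.6 FPKM, and Elob, which binds the SOCS box, at 194 ± 13.2 and 243 ± 32.3 FPKM (SD, n = 3 each). In Rbx1, Rnf7 and Elob all 3 Abx libraries lay above all 3 Con libraries, where 17.2% of all genes tested had groups apart, and 0 of the 3 were called by limma. They are 3 of 8 tested partners, of which 4 had a higher and 4 a lower mean in Abx. In Elob the lowest Abx library, at 208.23 FPKM, lay just above the highest Con library, at 207.86 FPKM.

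Other genes that the same signals induce were measured beside Cish and Socs1. All 13 listed STAT5 targets were tested, 4 with a higher and 9 with a lower mean in Abx, with a median of -0.52 and 0 at an unadjusted p under 0.05 in limma. Tnfrsf18 was at 407 ± 38.4 and 272 ± 165 FPKM, Ccnd2 at 64.5 ± 11.9 and 79.8 ± 17.5 FPKM and Tnfrsf4 at 54.8 ± 30.6 and 34.2 ± 29.7 FPKM (SD, n = 3 each). Pim1, named after its values were seen, was at 8.99, 14.8 and 8.34 FPKM in Con against 5.16, 5.24 and 3.56 FPKM in Abx. Its groups did not overlap, as in 17.2% of all genes tested, while those of the other listed targets did. The median of this list relative to the Con mean was -0.19, 0.04 and -0.16 for Con, whereas the values of Abx were -0.17, -0.71 and -0.07. This median was lowest in Abx library 2, where Cish was at 61.9 FPKM, and near the Con values in Abx library 3, where Cish was lowest. These libraries were picked after the values were seen, and a link between Cish and this list was not tested.

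Of 31 interferon-stimulated genes, 14 were tested, 9 with a higher and 5 with a lower mean, with a median of 0.21 and 0 at an unadjusted p under 0.05 in limma. Psmb8 was at 103 ± 18.0 and 112 ± 20.6 FPKM, Bst2 at 67.1 ± 18.4 and 121 ± 64.2 FPKM and Samhd1 at 40.5 ± 3.87 and 36.7 ± 4.35 FPKM (SD, n = 3 each). The median of the list was 0.43, -0.33 and -0.06 for Con, whereas the values of Abx were 0.26, 0.48 and 0.20. By this median of the 14 tested genes, Con library 2 was lowest, and it was highest for Socs1. Genes under the filter do not enter the median. Of those, Usp18 and Isg15 were highest in Con library 2, at 6.63 and 1.38 FPKM. Others were not, such as Oas1a, at 6.48 FPKM in Con library 1 and 0 in Con library 2. Isg15 was at 0.04, 1.38 and 1.24 FPKM in Con and listed at 0 in each Abx library. Cxcl10 was also lower in each Abx library than in any Con library. In Ifit3, Mx2, Oasl2 and Rsad2 each Abx library lay above every Con library. Ifit3, for example, was at 0.27, 0.36 and 0.07 FPKM in Con against 1.02, 0.46 and 0.69 FPKM in Abx. Of the 19564 genes above 0 in any library, 11.0% had groups that did not overlap. These genes are named after their values were seen, and a link with Socs1 was not tested. Among the tested genes with a lower mean was Irf7, also named after its values were seen (log2 difference -1.87, limma adjusted p = 0.455). The symbols Ifit1 and Ifit2 also stand on a second entry each, with identifiers that the annotation gives to other genes. These 2 entries were not counted in the list, and their log2 differences were -3.54 and -2.84. Both passed the filter through Con alone, so that no p is given. Mx1 and Irf7 of this list stand on a second entry each as well, which was not counted and is not described here.

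**Figure D4:**
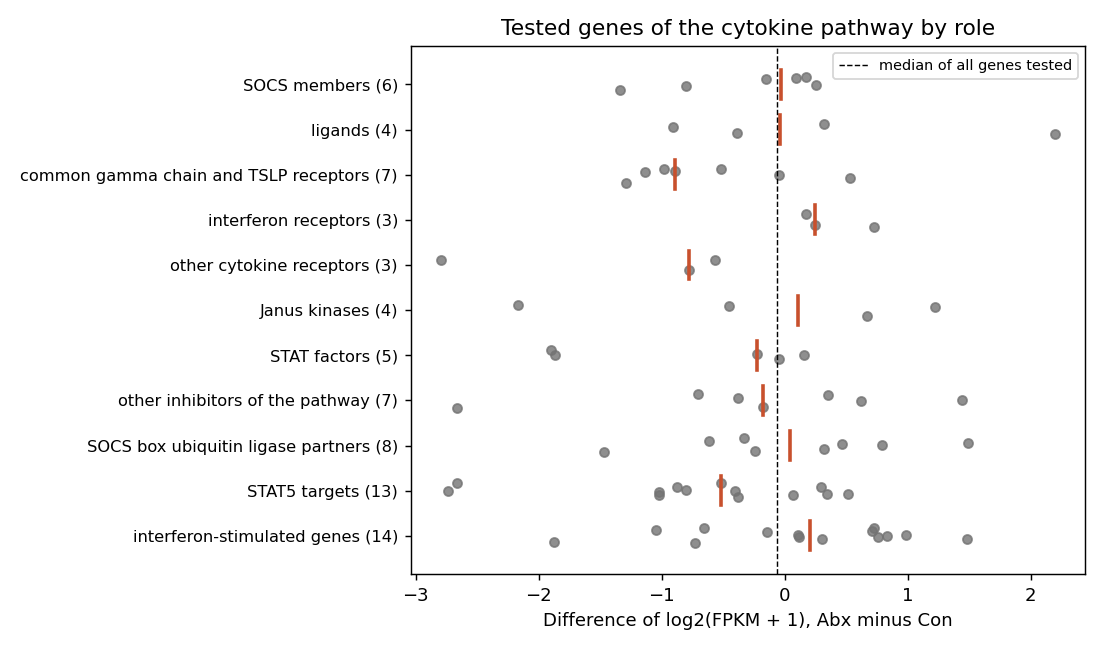
Fitted difference of log2(FPKM + 1), Abx minus Con, for each tested gene of the pathway by role (grey points, number of genes in brackets), with the median of each list (red) and of all genes tested (dashed, -0.06). The members have a median of -0.03, and the common gamma chain and TSLP receptors the lowest, at -0.89.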

How the data were processed

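SMART-seq libraries of 1000 sorted lung ILC2s were grouped by their labels into 3 Abx and 3 Con. The deposited values are FPKM. Per their methods, the authors computed them after trimming with Cutadapt, mapping with HISAT2 and assembly with StringTie. Their methods name a human annotation (Ensembl 96), while the identifiers are from mouse, and the submitters' processing notes name Bowtie 0.12.2 and the builds mm8 and mm9. Of 55394 identifiers, 55134 are in GENCODE M21 (GRCm38, Ensembl 96), from which gene positions were taken. In low values of genes with 1 transcript, 29.1% to 36.2% lay within 0.1 of a whole step, for the step with the highest share in each library. The share by chance is 20% for a step fixed beforehand, and it was not computed for the best of many steps. Read counts were not recovered, and depth is unknown. The authors' DESeq2 step needs read counts and was left out.

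The filter kept genes that reached 1 FPKM in 3 or more libraries. They were tested on log2(FPKM + 1) with limma 3.58.1 in R 4.3.3 (eBayes with trend, two-sided, Benjamini-Hochberg over 8718 genes), called at a fold over 2 and an adjusted p under 0.05, and tested on simulated data. The pseudocount understates changes of low genes. Genes under the filter had an exact permutation test. The members and lists were chosen with earlier results of these data known. Of each list, the 3 genes with the highest mean and any at an unadjusted p under 0.05 are named. Where 6 symbols of the lists (Stat5a, Stat6, Ifit1, Ifit2, Mx1 and Irf7) occur on a second entry, the entry with the annotated identifier was used. A gene of the lists is not reported here. Alternatives were pseudocounts of 0.1 and 0.01, quantile normalization, median centring, no filter, a mean of at least 5 FPKM, leaving out each library and a block for the replicate number. Robust variance and no fold limit were tried for the calls. Python 3.11.15, pandas 2.3.3 and matplotlib 3.10.9 prepared the tables and plots.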

Additional observations from a re-analysis of the deposited data

How the results depend on the processing

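Under each alternative tried 0 of the tested members were called by limma. At an unadjusted p under 0.05 there were 0 as well, which was not counted for robust variance and no fold limit. Of all genes tested, between 0 and 7 were called, with 5 in the comparison as reported. The number of members whose groups did not overlap was 2 as reported, 1 under quantile normalization, 0 with a mean of at least 5 FPKM, which removes Socs5 and Socs7, and 2 to 4 with a library left out, the highest without Abx library 2. With a library left out, groups lie apart more easily. The share over all genes was not counted under these alternatives, so no reading of the members is drawn from these counts. The direction of Socs4 turned with a pseudocount of 0.1 (-0.64), with 0.01 (-1.42) and with centring on the median (-0.033). Centring also moved the median of all genes tested from -0.06 to -0.19. For the other 8 genes the direction was kept under every alternative that used all 6 libraries. With each library left out in turn, the log2 difference ranged from -0.45 to 0.16 for Cish, -0.74 to 0.78 for Socs1, -2.06 to -0.09 for Socs2, -0.47 to 1.26 for Socs3, -0.96 to 0.63 for Socs4, -1.44 to -0.54 for Socs5, -0.25 to 0.0048 for Socs6, 0.07 to 0.94 for Socs7 and -1.71 to 0.26 for Pias1. Where a group was left with 2 libraries, the spread was pooled over both groups.

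Both groups use the replicate numbers 1 to 3. Deviations of same-numbered libraries from their group means correlated at -0.02, -0.03 and 0.01 across genes. These values show no strong shared course by number, and whether the libraries were handled in pairs cannot be told from them. With the replicate block 0 members and 0 of all genes were called. Depth is unknown, so no level near 0 could be told from absence.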

Other observations

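For the 4 cytokine-induced members, the tested genes whose values followed the same course over the 6 libraries were listed, by the root mean square difference of log2(FPKM + 1) after each gene was centred on its own mean. The 3 genes closest to Cish were Fam173a (0.159), Acadm (0.179) and Lamtor4 (0.190), and 15 genes lay within 0.25. Those closest to Socs2 were Gm14117 (0.237), Slc25a38 (0.270) and Map2k5 (0.281), which were at 0, 0 and 0.05 FPKM in Abx library 3 and at 8.52 FPKM or more in each other library. Those closest to Socs3 were Rab27a (0.217), Ppp1r7 (0.335) and Zfp125 (0.341), all highest or next to highest in Abx library 3 and at 0.05 FPKM or less in Abx library 2. Those closest to Socs1 were Clec2d (0.333), Dock11 (0.354) and Ganc (0.392), all at 0.01 FPKM or less in Con library 3. With 6 libraries and 8718 genes such likeness is a description of these libraries.

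The spread of the members between libraries of one group was wide. The residual SD of log2(FPKM + 1) was 0.583 for Cish, below the median of 0.847 over all genes tested. It was 1.28 for Socs1, 1.34 for Socs3, 1.43 for Socs4, 1.54 for Socs2 and 1.66 for Pias1, larger than in 70.0% to 84.6% of all genes tested.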
